A study of Mus musculus with 6 samples.

Results

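The solute carriers described here belong to families known for moving inorganic ions across cell membranes, some of whose members carry organic anions instead: bicarbonate transporters (Slc4a), sodium-calcium exchangers (Slc8a and Slc24a), sodium-proton exchangers (Slc9a), cation-chloride cotransporters (Slc12a), sulphate and carboxylate carriers (Slc13a), phosphate and organic anion carriers (Slc17a), phosphate carriers (Slc20a and Slc34a) and anion exchangers (Slc26a). The families were chosen with earlier results of these data known. Their genes were taken by symbol alone, as every probe whose symbol starts with 1 of these 10 family names. This gave 67 of the 30789 genes on the array, read by 136 of its 45281 probes. The prefix also takes in 3 genes that encode no carrier, the adaptor Slc4a1ap and the scaffold proteins Slc9a3r1 and Slc9a3r2, which anchor sodium-proton exchangers. Expression was read on 6 Illumina bead arrays of uterine RNA from pregnant mice, with 3 arrays for day 18.5 post coitum and 3 for day 15.5. The labels give no strain, treatment or age, and name the tissue as uterus where the design text speaks of myometrium. They leave the number of animals per array unstated. The p-values therefore reflect variation among arrays, which may be technical in part. The series title places the comparison in the change of the uterus in pregnancy and labour.

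Carriers of these families set the ion content, pH and volume of a cell and of the fluid next to it. Bicarbonate transporters and sodium-proton exchangers remove or take up acid equivalents, cation-chloride cotransporters load or unload chloride, and sodium-calcium exchangers clear calcium from the cytosol after contraction. In the uterus, epithelial carriers shape the luminal fluid, whereas calcium and chloride handling in smooth muscle bears on excitability.

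Arrays of a day correlated at 0.987 to 0.992 over the 20701 probes tested, and arrays of different days at 0.946 to 0.961. The smooth muscle genes fixed as tissue markers were all measured, 10 of 10, with 4 lower at day 18.5 and none higher. The 3 arrays of each day filled adjoining positions of 1 chip, and the effect of position cannot be told apart from that of day. In bulk tissue, fewer cells of a type and less RNA per cell cannot be told apart either. All levels below are log2 normalized intensity, a fold is day 18.5 over day 15.5 unless called lower, and a probe passed the test at an adjusted p under 0.05 in a limma fit over all 20701 probes.

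Of the 136 carrier probes, 49 passed the detection filter, a detection p under 0.05 on at least 3 of the 6 arrays, and 37 of these were detected on all 6. They cover 34 genes. A further 16 probes were detected on 1 or 2 arrays and 71 on none, and 23 of the 67 genes had no probe detected on any array. The share that passed was 36.0% for carrier probes and 45.7% for all probes of the array. It ran from 12 of 20 probes for Slc4a and 14 of 22 for Slc9a to 2 of 19 for Slc26a. An undetected probe does not show that its gene was silent.

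Among the 49 carrier probes, 3 rose and 7 fell at day 18.5, against 11.6% of all tested probes higher and 13.2% lower; 24.8% of all tested probes changed in either direction, and 20.4% of the carrier probes. The share of carrier probes that changed was close to that of all tested probes. Over all tested probes, median scaling of the arrays in place of quantile normalization turned 2404 higher and 2731 lower into 1698 and 4074, while among carrier probes it gave 3 and 9. The median log2 change was -0.05 over the carrier probes and 0.01 over all probes, and the median size of a change, whatever its sign, was 0.17 and 0.24. The days did not overlap for 16 carrier probes, or 32.7%, against 41.7% of all tested probes. The 10 probes that passed belong to 9 genes: Slc26a4 and Slc4a8 rose, and Slc17a4, Slc13a2, Slc4a1, Slc12a8, Slc8a1, Slc26a6 and Slc4a4 fell. Of the 49 carrier probes tested, 4 passed with a change of at least 2-fold, Slc26a4 upward and Slc17a4, Slc13a2 and Slc4a1 downward. Of all 20701 probes tested, 730 (3.53%) passed with a rise of that size and 752 (3.63%) with such a fall. The days did not overlap at any of the 10 carrier probes past the test, each read from 28 to 63 beads per array. With 3 arrays per day, passing the test itself favours days that do not overlap.

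**Figure D1:**
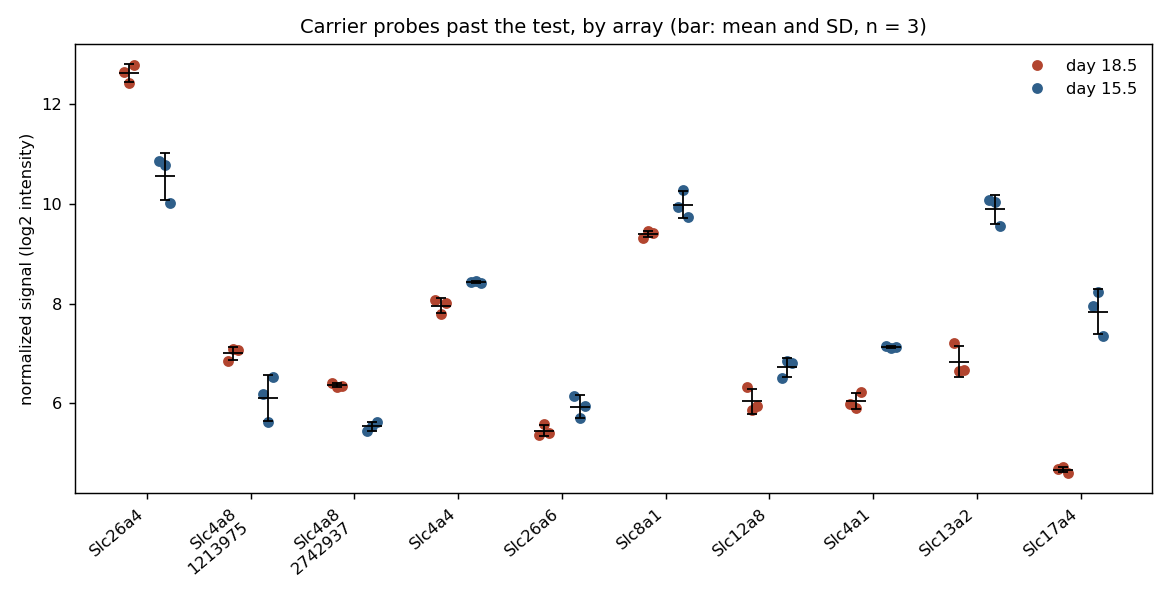
Normalized signal (log2 intensity, vertical axis) of the 10 carrier probes past the test on each array, day 18.5 in red left of day 15.5 in blue, with bars for the mean and SD of 3 arrays. Slc26a4 is at the left end and Slc17a4 at the right, where its day 18.5 signals were undetected and give no rank against Slc13a2; the signal of 1 probe is not comparable with that of another.

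The anion exchangers of the Slc26a family held the carrier with the largest rise. Slc26a4 (probe ILMN_1220193) encodes pendrin, which exchanges chloride for bicarbonate or iodide in kidney, inner ear and thyroid. Its signal was 12.64, 12.43 and 12.78 on the arrays of day 18.5, against 10.85, 10.79 and 10.01 at day 15.5. All later arrays lay above all earlier ones, and replicate 3 of day 15.5 was the lowest. The rise was 4.19-fold (log2 change 2.07 ± 0.22, SE, n = 3 per day; adjusted p = 0.000161). Slc26a6, another chloride-bicarbonate and oxalate exchanger of epithelia, went the other way from a signal near background. It measured 5.36, 5.58 and 5.41 at day 18.5, where 2 arrays detected it, against 6.15, 5.70 and 5.94 at day 15.5, where all 3 did. That fall was 1.39-fold (log2 change -0.48 ± 0.15, SE; adjusted p = 0.0391), and the call was lost under 10 of 16 alternative settings. The other 8 Slc26a genes, Slc26a1, Slc26a2, Slc26a3, Slc26a5, Slc26a7, Slc26a8, Slc26a9 and Slc26a11, had no probe past the detection filter.

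Among carriers of organic and inorganic anions, Slc13a2 and Slc17a4 fell further than any other carrier. Slc13a2 (probe ILMN_2646369) encodes a sodium-dicarboxylate cotransporter that takes up citrate and succinate in kidney and intestine. It measured 7.20, 6.64 and 6.66 at day 18.5, against 10.07, 10.03 and 9.56 at day 15.5. The gap between the days was far wider than the spread within either, and the gene was detected on all 6 arrays. It fell 8.28-fold (log2 change -3.05 ± 0.19, SE; adjusted p = 9.62e-06). Slc17a4 (probe ILMN_2672147) encodes an intestinal carrier of organic anions, named after its relation to the sodium-phosphate cotransporters. It was detected on all 3 arrays of day 15.5, at 7.94, 8.23 and 7.34, and on none of day 18.5, where its signals of 4.69, 4.71 and 4.61 give only a bound. Such a loss of detection was found for 1.21% of all tested probes, and Slc17a4 entered the test through day 15.5 alone. Slc17a4 was at least 5.32-fold lower at day 18.5 (adjusted p = 1.03e-05), counting the later arrays at the lowest signal of a detected probe. In the authors' deposited table, where no offset is added to the intensities, its ratio of day 18.5 over day 15.5 is 0.0439.

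The relatives of these carriers that were measured did not pass the test. Slc13a3, a further sodium-dicarboxylate cotransporter, averaged 5.57 ± 0.49 at day 18.5 and 5.75 ± 0.42 at day 15.5 (SD, n = 3 each), with an adjusted p of 0.683. Slc17a1, a kidney and liver relative of Slc17a4, was detected on 2 arrays of each day and changed by 0.02 on the log2 scale (adjusted p = 0.963). Slc13a3 and Slc17a1 lay near the lowest signal of a detected probe (5.34 to 5.51 over the arrays), where a fall could hardly show. Slc17a5, the lysosomal sialic acid exporter, averaged 8.45 ± 0.17 at day 18.5 and 8.41 ± 0.18 at day 15.5 (adjusted p = 0.894). No Slc20a or Slc34a probe passed the test, and none had an unadjusted p under 0.05. Slc20a1, a housekeeping sodium-phosphate cotransporter, averaged 5.94 ± 0.15 at day 18.5 and 5.94 ± 0.20 at day 15.5 (adjusted p = 0.999). Slc34a2, the phosphate cotransporter of lung and intestinal epithelium, averaged 8.15 ± 0.24 at day 18.5 and 8.13 ± 0.22 at day 15.5. Slc13a1, Slc13a4, Slc13a5, Slc17a2, Slc17a3, Slc17a6, Slc17a7, Slc17a8, Slc20a2, Slc34a1 and Slc34a3 had no probe past the detection filter.

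The windows around the start sites of Slc26a4, Slc13a2 and Slc4a8 are shown because they are the carriers with the largest rises and the largest fall for which RefSeq (GRCm38.p6) supplied a window; each runs from 250 bases before to 50 after the start, on the strand of the gene. Capitals mark the letters CACCTG on either strand, the E-box that ZEB1 and ZEB2, named in the series title, are known to bind, and TATAAA on either strand.
Slc26a4, chr12:31559935-31560234, minus strand: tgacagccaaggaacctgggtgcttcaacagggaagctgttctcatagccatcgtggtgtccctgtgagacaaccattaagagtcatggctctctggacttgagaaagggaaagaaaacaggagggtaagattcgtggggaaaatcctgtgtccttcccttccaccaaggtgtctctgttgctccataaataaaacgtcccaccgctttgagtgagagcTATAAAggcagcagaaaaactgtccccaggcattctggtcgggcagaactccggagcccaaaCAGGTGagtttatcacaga
Slc13a2, chr11:78422185-78422484, minus strand: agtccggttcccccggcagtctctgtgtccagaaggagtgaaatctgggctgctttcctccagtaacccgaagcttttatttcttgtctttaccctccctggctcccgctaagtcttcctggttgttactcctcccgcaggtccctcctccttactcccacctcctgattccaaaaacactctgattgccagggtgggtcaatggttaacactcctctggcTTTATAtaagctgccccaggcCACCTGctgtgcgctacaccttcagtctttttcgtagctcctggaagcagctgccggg
Slc4a8, chr15:100761497-100761796, plus strand: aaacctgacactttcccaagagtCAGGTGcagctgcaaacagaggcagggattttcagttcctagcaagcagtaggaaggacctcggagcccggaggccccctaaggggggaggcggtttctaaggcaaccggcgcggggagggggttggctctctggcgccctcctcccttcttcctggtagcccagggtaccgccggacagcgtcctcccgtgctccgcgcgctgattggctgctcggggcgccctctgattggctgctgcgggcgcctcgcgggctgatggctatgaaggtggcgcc

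In Slc26a4 the E-box letters begin at base 32 after the start and TATAAA 31 bases before it. In Slc13a2 they begin 8 and 29 bases before the start, and in Slc4a8 the E-box letters begin 227 bases before it. The E-box letters thus stand in each window shown. They were found in 20.2% of all 32851 windows of the table, in 24 of the 67 windows of the 51 carrier genes matched by symbol, and in 6 of 10 windows of the 7 matched genes that changed. TATAAA was found in 13.6% of all windows and in 2 of those 10. The palindromic oestrogen response element was found in 0.07% of all windows and in none of the carriers' windows. These are matches of letters only.

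Of the bicarbonate transporters, 7 of 10 Slc4a genes passed the detection filter, and those that changed went both ways. Slc4a8 encodes a sodium-driven chloride-bicarbonate exchanger that brings bicarbonate into the cell. At probe ILMN_2742937 it measured 6.40, 6.33 and 6.35 at day 18.5, against 5.45, 5.54 and 5.63 at day 15.5, where 2 of 3 arrays detected it. It rose 1.77-fold there (log2 change 0.82 ± 0.12, SE; adjusted p = 0.00084). Probe ILMN_1213975 measured 6.85, 7.09 and 7.06 at day 18.5, against 6.19, 5.62 and 6.53 at day 15.5. The earlier arrays were spread more widely, and the rise of 1.85-fold had an adjusted p of 0.0136. The last kept Slc4a8 probe, ILMN_2514202, gave 5.26, 5.72 and 5.42 at day 18.5 and 5.24, 5.73 and 5.44 at day 15.5, close to background, with an adjusted p of 0.992. The rise was thus read from the brighter probes only, and a signal this close to background does not show that its target stayed the same.

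Slc4a1 and Slc4a4 fell. Slc4a1 encodes the band 3 anion exchanger of red cells. It measured 5.98, 5.91 and 6.22 at day 18.5, against 7.15, 7.11 and 7.14 at day 15.5, with little spread among the earlier arrays. The fall was 2.14-fold (log2 change -1.09 ± 0.13, SE; adjusted p = 0.000255). Slc4a4, the electrogenic sodium-bicarbonate cotransporter of many epithelia, measured 8.08, 7.78 and 8.01 at day 18.5, against 8.42, 8.45 and 8.41 at day 15.5 at probe ILMN_2993221. It fell 1.38-fold (log2 change -0.47 ± 0.12, SE; adjusted p = 0.0219). A dimmer Slc4a4 probe, detected on 2 arrays of each day, averaged 5.60 ± 0.22 at day 18.5 and 5.48 ± 0.41 at day 15.5 (SD, n = 3 each; adjusted p = 0.71). Averaged with it, Slc4a4 no longer passed (adjusted p = 0.393 at a log2 change of -0.17), and across all alternatives its adjusted p was 0.00563 to 0.393. It was also lost without replicate 2 of day 18.5 (adjusted p = 0.102) and without replicate 2 or 3 of day 15.5 (0.0553 and 0.0565).

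The other measured genes of this family did not pass. Slc4a2, the anion exchanger found in most cells, measured 10.91, 10.75 and 10.86 at day 18.5, against 10.75, 10.85 and 10.52 at day 15.5, and the days overlapped (adjusted p = 0.5). The sodium-bicarbonate cotransporter Slc4a7 averaged 9.72 ± 0.07 at day 18.5 and 9.53 ± 0.08 at day 15.5 (SD, n = 3 each; adjusted p = 0.272). The 3 kept probes of Slc4a3, an anion exchanger of heart and brain, changed by -0.19, -0.14 and -0.05 on the log2 scale, and none passed. The adaptor Slc4a1ap changed by 0.25 (adjusted p = 0.177). Slc4a9, Slc4a10 and Slc4a11 had no probe past the detection filter.

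The sodium-proton exchangers, which extrude acid at the cell surface or set the pH of endosomes, were the best covered family without a probe past the test. None of 14 probes for 7 Slc9a genes passed in limma, and 2 had an unadjusted p under 0.05. Their log2 changes ran from -0.32 to 0.32. Slc9a8, an endosomal and Golgi exchanger, was read by 4 kept probes, with log2 changes from -0.24 to 0.13. Slc9a7 and Slc9a9, of the Golgi and endosomes, changed by 0.23 and -0.22 without passing. The outermost probes belong to the scaffolds: Slc9a3r1 averaged 10.13 ± 0.13 at day 18.5 and 9.81 ± 0.17 at day 15.5 (adjusted p = 0.122), and Slc9a3r2 averaged 9.53 ± 0.07 at day 18.5 and 9.85 ± 0.17 at day 15.5 (adjusted p = 0.104). At both, the days did not overlap although the test was not passed. Under the alternatives, Slc9a3r1 passed in 1 of 17 and this Slc9a3r2 probe (ILMN_2710274) in 3 of 17. Slc9a2, Slc9a4, Slc9a5 and Slc9a10, now Slc9c1 in RefSeq, had no probe past the detection filter.

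Of the cation-chloride cotransporters, 1 of 7 measured genes fell. Slc12a8, a distant member of the family, measured 6.32, 5.86 and 5.94 at day 18.5, against 6.51, 6.85 and 6.81 at day 15.5. It fell 1.6-fold (log2 change -0.68 ± 0.16, SE; adjusted p = 0.0129), and without replicate 2 of day 18.5 the adjusted p was 0.0524 (0.00464 to 0.0524 over the alternatives). Slc12a2, the sodium-potassium-chloride cotransporter that loads cells with chloride, measured 12.33, 12.51 and 12.41 at day 18.5, against 12.23, 12.42 and 12.02 at day 15.5 at its brighter probe. These values overlapped between the days (log2 change 0.19 ± 0.14, SE; adjusted p = 0.345), as did those of its other kept probe. Slc12a3, Slc12a4, Slc12a7 and Slc12a9 did not pass either, with log2 changes from -0.34 to -0.07. Slc12a1 and Slc12a5, known from kidney and neurons, had no probe past the detection filter.

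Of the sodium-calcium exchangers, Slc8a1 fell at its brighter probe. Slc8a1, the exchanger that extrudes calcium from heart and smooth muscle cells, measured 9.32, 9.44 and 9.42 at day 18.5, against 9.94, 10.28 and 9.73 at day 15.5 at probe ILMN_2756030. The later arrays lay close together below all earlier ones. The fall was 1.5-fold (log2 change -0.59 ± 0.15, SE; adjusted p = 0.0204). The other kept probe changed by -0.28 with overlapping days (adjusted p = 0.312). The call at the brighter probe was lost without replicate 1 of day 18.5 (adjusted p = 0.064) or replicate 2 of day 15.5 (0.0533; 0.00533 to 0.064 over the alternatives). Slc24a3, a potassium-dependent relative, measured 11.22, 11.13 and 11.14 at day 18.5, against 11.39, 11.49 and 11.56 at day 15.5. The days did not overlap, but the change of -0.31 ± 0.12 (log2, SE) gave an adjusted p of 0.0772. It passed under 6 of 17 alternatives (adjusted p 0.0288 to 0.21). Slc24a6, the mitochondrial sodium-calcium exchanger now called Slc8b1 in RefSeq, changed by -0.18 (adjusted p = 0.351). Slc24a1, best known from the retina, changed by 0.13 (adjusted p = 0.495). Slc8a2, Slc8a3, Slc24a2, Slc24a4 and Slc24a5 had no probe past the detection filter.

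**Figure D2:**
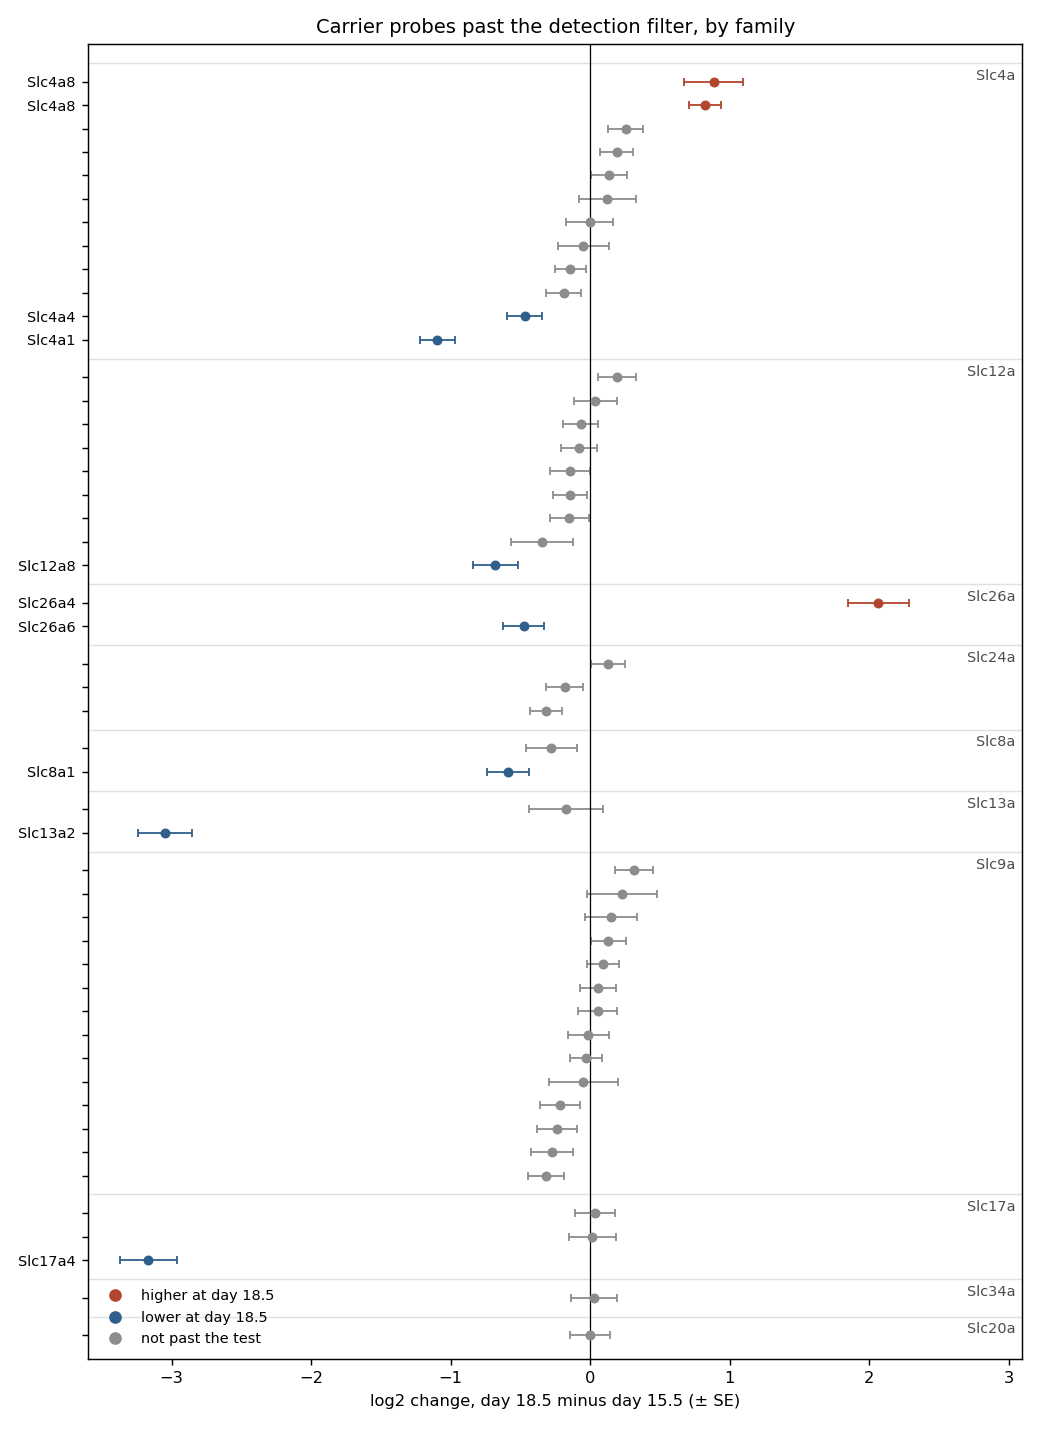
Log2 change (day 18.5 minus day 15.5, horizontal axis, ± SE) of the 49 carrier probes past the detection filter, grouped by family, with the genes past the test named. Slc26a4 stands alone on the right at 2.07, Slc13a2 on the left at -3.05, and Slc17a4, undetected at day 18.5, has a point that is no exact level; the 39 probes not past the test lie between -0.34 and 0.32.

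Small differences were common among the carrier probes and among all tested probes alike, with a median size of 0.17 and 0.24 on the log2 scale. Failing the test itself favours small changes: of the 39 carrier probes that did not pass, 32 changed by less than 0.25. The standard errors over the 49 carrier probes ran from 0.11 to 0.27.

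Partners of these carriers in the same transport processes were taken from 6 lists of related genes, each gene at its brightest probe. Of 55 measured genes 10 rose and 11 fell, or 38.2% in all, against 24.8% of all tested probes. The first share is over genes and the second over probes. The lists were chosen with earlier results of these data known, so the higher share is no evidence that related genes changed more often. The median log2 change of the 55 genes was -0.01. Carbonic anhydrases, which supply bicarbonate and protons, went both ways, with 4 of 10 higher and 2 lower. Car12, a membrane enzyme, averaged 11.68 ± 0.41 at day 18.5 and 9.42 ± 0.21 at day 15.5 (SD, n = 3 each), a 4.79-fold rise (adjusted p = 6.17e-05). Car4, also anchored to the membrane, averaged 10.25 ± 0.21 at day 18.5 and 12.40 ± 0.17 at day 15.5, a 4.46-fold fall (adjusted p = 1.53e-05). The list of chloride and sodium channels of epithelia had 2 of 7 higher and 3 lower. The epithelial sodium channel subunit Scnn1b fell 4.29-fold (adjusted p = 2.09e-05), and Scnn1g, detected on no array of day 18.5, was at least 4.18-fold lower; it entered the test through day 15.5 alone (adjusted p = 4.98e-05). Cftr, the chloride and bicarbonate channel of secretory epithelia, rose 3.34-fold (adjusted p = 0.000624). The other genes named from the lists were picked by the size of their change, and Cftr was added after its values were seen.

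The remaining lists changed less in number. Of 10 subunits and regulators of the sodium-potassium pump, 1 rose and 2 fell: the FXYD regulator Fxyd4 rose 5.96-fold (adjusted p = 4.23e-05), and the subunit Atp1b1 fell 1.86-fold (adjusted p = 0.00101). Of 8 measured scaffolds and partners, 3 rose and 1 fell. Ank, which releases pyrophosphate or its precursor from cells, rose 4.66-fold (adjusted p = 1.48e-05). Pdzk1, a scaffold of apical carriers detected on 2 arrays of day 15.5, rose 3.16-fold (adjusted p = 0.000363). Of 8 genes of the WNK kinase pathway, which sets the activity of the Slc12a cotransporters, 1 fell, the ubiquitin ligase Nedd4l (1.54-fold; adjusted p = 0.00349). Of 12 subunits of the vacuolar proton pump, 2 fell, Atp6v1b2 (1.43-fold; adjusted p = 0.0172) and Atp6v0a1 (1.39-fold; adjusted p = 0.0261).

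**Figure D3:**
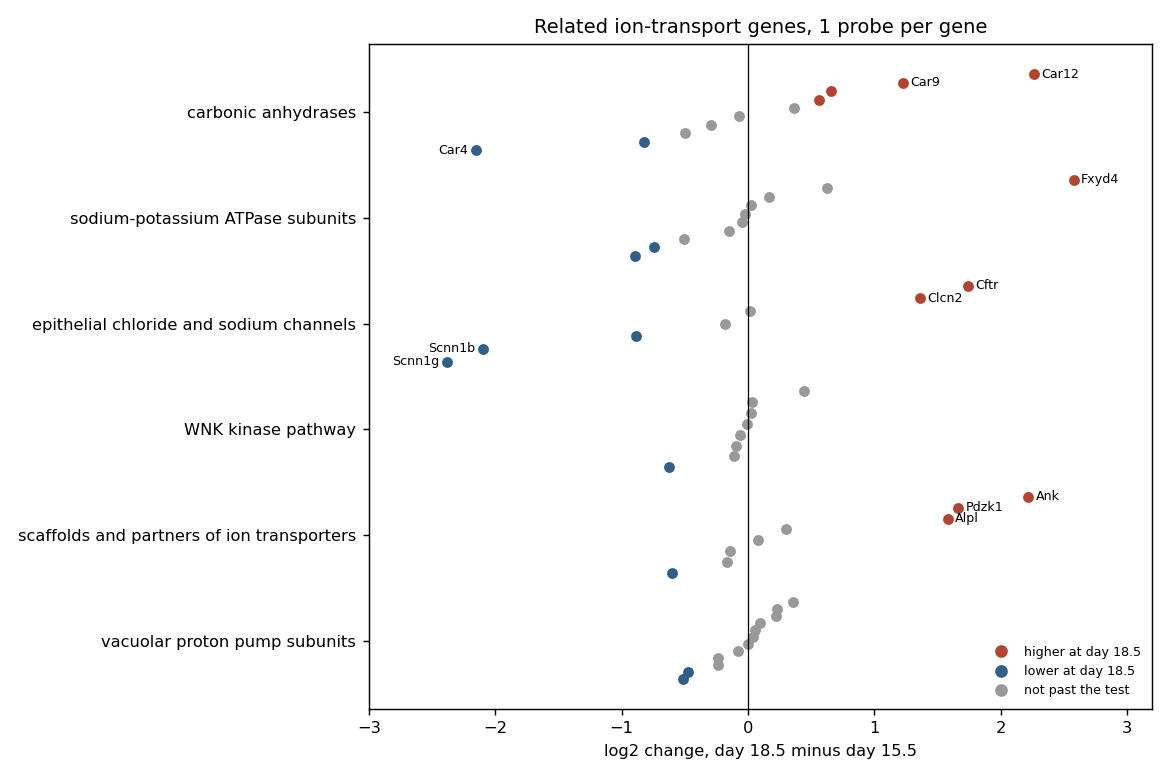
Log2 change (day 18.5 minus day 15.5, horizontal axis) of 55 measured genes in 6 lists of related ion-transport genes, 1 point per gene at its brightest probe, red where higher and blue where lower at day 18.5. Genes past the test with a change above 1 in size are named; Scnn1g was undetected at day 18.5, so its point is no exact level.

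Cell type markers moved as well. Of 11 measured epithelial markers, 9 were higher at day 18.5 and none lower, and Epcam, Ehf and Foxa2 were not measured. The 9 rose by 1.41-fold (Krt18) to 6.52-fold (Cldn4), and Cldn3 and Cldn7 did not pass. The summed linear signal of the 11 was 73932 to 80645 at day 18.5 and 20234 to 34053 at day 15.5. The secreted product Ltf weighs heavily in these sums, at 15.07 ± 0.02 at day 18.5 and 12.80 ± 0.61 at day 15.5 (log2, SD, n = 3 each). Epithelial markers and Slc26a4 thus were higher on the same day on which Slc13a2, Slc17a4 and Slc4a4, also known from epithelia, were lower, and their part in these results was not tested. Of 13 trophoblast markers, 3 were measured and 2 of these were higher, with sums of 2157 to 7804 at day 18.5 and 78.7 to 198 at day 15.5. Of 5 measured yolk sac markers, 2 were higher and 2 lower, with sums of 1128 to 5140 at day 18.5 and 1509 to 2112 at day 15.5. Of these 8 measured fetal markers, Prl2a1, Afp and Apoa1 were detected on no array of day 15.5, Prl2c2 and Prl3b1 on 2 arrays, and Rbp4, Apom and Amn on all 3. The part of fetal tissue in the carriers' changes was not tested.

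Some other marker lists were lower on the day on which 7 carriers fell, and others were not. Of 6 measured lymphocyte and NK cell markers 5 fell, with sums of 676 to 915 at day 18.5 and 5133 to 6380 at day 15.5. Of 4 skeletal muscle markers 2 fell, with sums of 1300 to 2146 at day 18.5 and 8401 to 10731 at day 15.5. Of 8 endothelial markers 4 fell, with sums of 7805 to 9209 at day 18.5 and 11188 to 14380 at day 15.5. Of 8 fibroblast markers 4 fell, with sums of 54296 to 61125 at day 18.5 and 68030 to 73798 at day 15.5. Of 8 decidua markers 4 rose and 2 fell, with sums of 58967 to 66662 at day 18.5 and 39265 to 48203 at day 15.5. Of 4 mesothelium markers 2 rose and none fell, with sums of 350 to 468 at day 18.5 and 185 to 297 at day 15.5. Of 8 macrophage markers 1 fell and 7 did not pass. Of 3 neutrophil markers 1 rose, and of 2 adipocyte markers none passed. The part of these cell types in the carriers' changes was not tested.

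Slc4a1 is itself a red cell gene. Of 11 red cell markers, 6 were measured, Slc4a1 among them: 2 rose, Alas2 and Slc4a1 fell, and the globins Hbb-b1 and Hba-a1 did not pass, with adjusted p-values of 0.0659 and 0.0741. The summed signal of the 6 was 49736 to 54684 at day 18.5 and 63986 to 65636 at day 15.5, and the part of blood in the Slc4a1 result was not tested. Beside Slc8a1, of 10 smooth muscle markers 4 fell and 6 did not pass, with sums of 110653 to 118893 at day 18.5 and 107342 to 120657 at day 15.5. Those that fell were Myocd, a coactivator of smooth muscle genes (5.22-fold, adjusted p = 3.7e-06), Smtn, Synpo2 and Lmod1, the last 3 by 1.30-fold to 1.43-fold. Acta2, smooth muscle actin, did not pass and averaged 14.79 ± 0.13 at day 18.5 and 14.72 ± 0.08 at day 15.5 (adjusted p = 0.725).

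**Figure D4:**
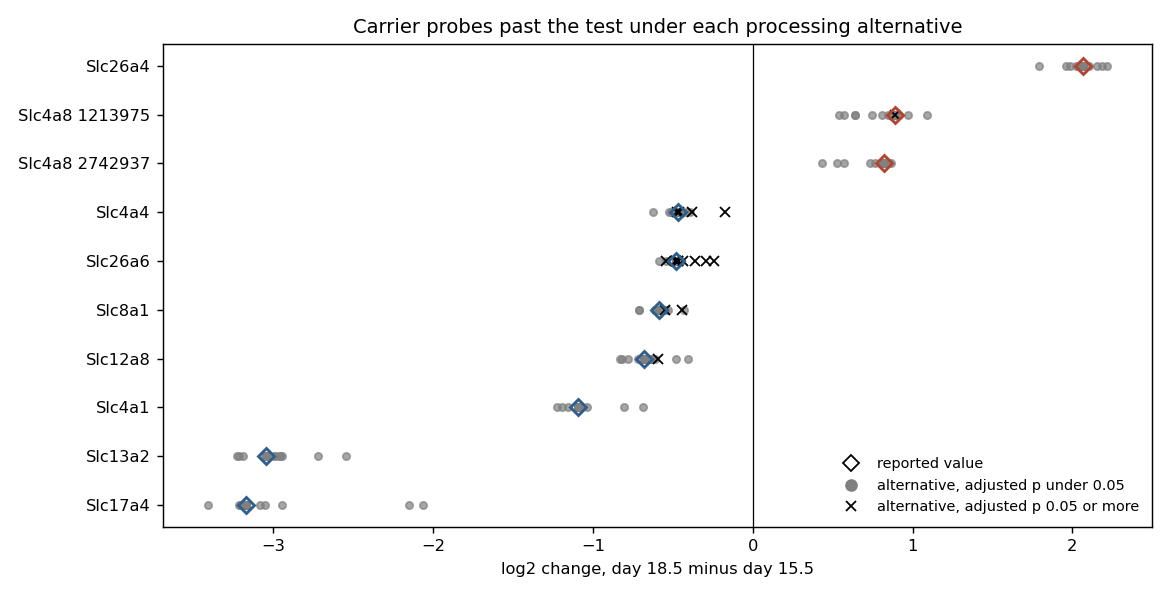
Log2 change (day 18.5 minus day 15.5, horizontal axis) of the 10 carrier probes past the test, as reported (diamonds) and under each alternative (dots where the adjusted p stayed under 0.05, crosses where it did not). Slc26a4, Slc13a2, Slc17a4, Slc4a1 and Slc4a8 probe ILMN_2742937 show no cross, and the points of Slc17a4 are fitted values against undetected signals, not exact changes.

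In the authors' deposited table, 8 of these 10 probes carry a false discovery rate under 0.05; it is 0.0542 for Slc4a4 and for Slc8a1. No other kept carrier probe with a ratio there is under 0.05.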

How the data were processed

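Per the file headers, the deposited unnormalized table lists every probe's average bead intensity on each array, with no background subtraction or normalization. A detection p-value stands beside each deposited intensity. The authors' normalized intensity table and comparison table hold the same values, with bead numbers (other values) per the file headers; after adding 16 they differ from the values used here by at most 0.0081 on the log2 scale, so they are no independent processing. The authors' background method and software are not given in the sources used here. Per the file headers the comparison table also gives a ratio and, as a q-value, its false discovery rate, sorted apart from the probes; 43887 of 43887 ratios were joined by symbol and by value within a relative tolerance of 1e-05. No column of values lacked a sample.

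With limma 3.58.1 under R 4.3.3, neqc corrected the background (offset 16), made the arrays' quantiles equal and took log2 values. Of all probes, 45.7% passed the detection filter, which left 20701; each day had 3 arrays, which limits the precision. Days were compared with lmFit and eBayes, with Benjamini-Hochberg adjustment over all probes, and the fit was checked on simulated data; an exact permutation test of 3 against 3 could not go below p = 0.1. A probe undetected on every array of a day is given as a bound. Carriers past the test with days apart are named in full, the brightest of each family otherwise, and up to 2 genes of each related list. Carriers, lists and rules were chosen with earlier results of these data known. Of the 136 probes, 97 were matched to RefSeq by accession; the others kept the file's symbol. A few genes that the counts include are not reported here by name.

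Replicate numbers are shared between days but do not pair the arrays: deviations of same-numbered arrays correlated at -0.165, 0.138 and -0.0709.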

Additional observations from a re-analysis of the deposited data

How the results depend on the processing

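Each of the 10 carrier probes past the test kept its direction under every alternative that could be computed for it, 15 to 17 per probe. This says little, because several alternatives, such as other detection filters and variance models, leave a probe's log2 change as it was. The authors' intensities are nearly the values used here. The days did not overlap at any of the 10, so leaving out an array could hardly reverse a direction. Of the 10 probes, 5 kept their call in every alternative computed for them. Log2 changes ran from 1.79 to 2.22 for Slc26a4, -3.23 to -2.55 for Slc13a2, -1.23 to -0.68 for Slc4a1 and 0.43 to 0.86 for Slc4a8 at probe ILMN_2742937; Slc17a4, undetected at day 18.5, kept its call in all 16 alternatives computed for it. Without a detection filter the adjusted p of the other Slc4a8 probe was 0.0537. With a detection p under 0.01 required on all 6 arrays, 32 carrier probes remained, of which 4 passed, 1 higher (Slc26a4) and 3 lower (Slc13a2, Slc4a4 and Slc8a1). That filter removed the called probes of Slc4a1, Slc17a4, Slc4a8, Slc12a8 and Slc26a6, so their calls were not tried under it. Leaving out each array in turn gave 7 to 10 carrier probes past the test, with 3 higher each time and 4 to 7 lower; the lowest count came without replicate 2 of day 18.5. With the replicate number as a block, 9 passed, 3 higher and 6 lower, and the Slc26a6 call was lost (adjusted p = 0.0744). Array weights gave 13, with Slc9a3r1, Slc9a3r2 and Slc24a3 added. The mean of all probes of Slc4a8 rose by 0.57 (adjusted p = 0.00795), where its probe ILMN_2514202 alone changed by 0.00. Of 39 carrier probes not past the test, 34 passed under no alternative. Median scaling moved the median log2 change of all probes to -0.11, from 0.01. Signals near background limit Slc26a6, Slc20a1, Slc13a3, Slc17a1 and the dimmer probes of Slc4a4 and Slc4a8.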
